A study of Mus musculus with 6 samples.

Results

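Border-type macrophages were nuclei of mouse cortical lesions that carried RNA of Cd163, Mrc1 and related receptors, which mark the macrophages of the meninges and of the spaces around brain vessels. They were chosen by measured values. A nucleus counted when it held at least 1000 unique molecular identifiers (UMIs, each standing for 1 captured RNA molecule), under 5% of them mitochondrial, when at least 4 of the 8 genes Cd163, Mrc1, F13a1, Stab1, Ms4a4a, Vsig4, Clec10a and Siglec1 were detected by a UMI, and when at most 1 of the 7 genes P2ry12, Sall1, Siglech, Fabp4, Slamf8, Cd3e and Col1a2 was detected. This held for 2950 of the 60729 nuclei that passed the filter on UMIs, or 4.86%.

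Macrophages of the brain borders sit in the leptomeninges, the dura and the perivascular spaces, on the outer side of the glial boundary, where they take up proteins, lipids and dying cells through scavenger receptors and can present antigen on MHC class II. They are a separate lineage from microglia, the macrophages of the brain tissue itself, although monocytes that enter an injured brain can come to share some of their markers. Transforming growth factor β (TGFβ) is stored in a latent form that integrin αvβ8 can release, and many macrophage genes respond to it.

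The 6 libraries were made from dissected photothrombotic (PT) lesions, in which light and a dye close cortical vessels, at 7 and 21 days post injury (dpi). Ctrl mice were wild-type, with no treatment given in the labels. ADWA11 mice were wild-type and were given ADWA11, an antibody that blocks integrin αvβ8, on the day of injury and weekly after it. Tgfbr2-cKO mice carried Col1a2(creER) and Tgfbr2(flox), so that tamoxifen removed the type II TGFβ receptor from cells with Col1a2 promoter activity, which are mainly fibroblasts, and not from macrophages by design. Each group was 1 library from 1 male and 1 female mouse whose tissue was combined, so no group had a second library and no difference below was tested across mice. The intervals given are exact 95% intervals that cover counting error only. Nuclei with Xist and no Y-linked UMI (female) stand for 1 mouse. Nuclei with a Y-linked UMI and no Xist (male) stand for the other. The values of each mouse are given where they bear on a result. Some border-type macrophages fell in neither group and count only in the library values. In the order Ctrl, ADWA11, Tgfbr2-cKO there were 71, 273 and 29 of these on day 7. On day 21 there were 38, 93 and 57. A library ratio therefore need not lie between the female and male ratios. Fewer RNA molecules per cell and fewer cells of a state cannot be told apart in summed counts.

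At 7 dpi the border-type macrophages numbered 343 in Ctrl, 1360 in ADWA11 and 107 in Tgfbr2-cKO, while the 21 dpi libraries held 195, 575 and 370. Their median depth ran from 4136 UMIs in Ctrl at 21 dpi to 6944.5 UMIs in ADWA11 at 7 dpi, and their summed UMIs from 932201 in Tgfbr2-cKO at 7 dpi to 10892671 in ADWA11 at 7 dpi. By gates of at least 3 genes, the Tgfbr2-cKO libraries held a different makeup of nuclei from the others. Nuclei with at least 3 genes of a neural class made up 85.7% of the passing nuclei in Tgfbr2-cKO at 7 dpi, and 62.6% at 21 dpi, against 17.3% to 33.5% in the other 4 libraries, and fibroblast-gated nuclei made up 3.84% and 12.6% against 43.6% to 69.6%. The neural gate was loose. Only 47 of the 107 border-type macrophages of Tgfbr2-cKO at 7 dpi lay outside it. How much of these shares was neural RNA adhering to other nuclei was not tested. Tgfbr2 itself had 344 CPM (its UMIs scaled to the same total of non-mitochondrial UMIs in every library) in fibroblast-gated nuclei of Ctrl, 258 in ADWA11 and 162 in Tgfbr2-cKO at 7 dpi, while the 21 dpi values were 225, 243 and 176. In border-type macrophages it had 467, 405 and 246 CPM at 7 dpi and 402, 444 and 309 at 21 dpi. Because the libraries count the 3′ ends of RNA, which need not lie in a floxed exon, these values do not check the deletion.

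RNA of other cells was present in the border-type macrophages, and it moved with the groups. At least 3 genes of a 10-gene fibroblast list were detected in 30.9% of them in Ctrl, 23.3% in ADWA11 and 2.80% in Tgfbr2-cKO at 7 dpi, while the 21 dpi values were 36.4%, 18.6% and 3.24%. At least 3 neuron genes were detected in 1.75%, 2.06% and 51.4% at 7 dpi and in 3.08%, 0.696% and 14.9% at 21 dpi. In all, 937 of the 2950 nuclei held at least 3 genes of a class other than macrophages or microglia, a count that leaves aside the 2091 nuclei with at least 3 genes of a 12-gene microglia list, and 398 were called as doublets. Barcode sequences were shared between libraries by 34 of them. Whether these nuclei were pairs of nuclei or macrophages with adhering RNA was not tested. Ratios and list counts below are given again without the 937 nuclei where leaving these out ended a call or moved a ratio by over 1.5-fold, a setting added after the data were seen. Where that leaves a library with no UMI of a gene, the floor of 3 counts is used and the ratio is a bound ("at least").

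The 8 genes of the rule were not detected alike. Mrc1, the mannose receptor CD206 (chr2:14229392-14332057, GRCm38), was detected in 80.4% to 97.9% of the border-type macrophages of a library, and Stab1, the scavenger receptor stabilin-1 (chr14:31139013-31168641), in 95.5% to 100.0%. F13a1, coagulation factor XIII subunit A (chr13:36867178-37050244), was detected in 69.7% to 88.9%. Ms4a4a, a membrane protein of the MS4A family (chr19:11375523-11392790), was detected in 49.9% to 90.5%, and Siglec1, the sialic acid receptor CD169 (chr2:131069220-131086765), in 52.7% to 68.2%. The hemoglobin scavenger receptor Cd163 (chr6:124304656-124330527) was the marker of the label, but only 12.4% to 26.2% of these nuclei held a UMI of it. The C-type lectin Clec10a (chr11:70156197-70170834) was detected in 18.1% to 62.8% and the complement receptor Vsig4 (chrX:96247203-96293438) in 8.38% to 24.0%. Most nuclei therefore met the rule through Stab1, Mrc1, F13a1, Ms4a4a and Siglec1.

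The label was checked against genes that the rule did not use. Csf1r, the receptor for the macrophage growth factor CSF1, was detected in 75.5% to 91.0% of the border-type macrophages, and 2892 of the 2950 held at least 3 of 8 general macrophage genes. That gate was loose. At 7 dpi it was met by 2461 of all 10856 passing nuclei in Tgfbr2-cKO and by 7076 of 10914 in ADWA11. Ms4a7 and Maf, which border macrophages and other tissue macrophages carry and microglia carry less of, were detected in 81.0% to 94.2% and in 84.1% to 94.3%. The levels of Ms4a7 were 421 to 914 CPM, against 16.6 to 127 CPM in microglia-type nuclei, which held at least 2 of P2ry12, Sall1, Siglech and Tmem119 and at most 1 of the 8 genes. Nuclei just outside the rule, with exactly 3 of the 8 genes, had 353 to 794 CPM. Ms4a7 thus set the border-type macrophages apart from microglia-type nuclei, but hardly from these. Microglial RNA was present too: at least 3 genes of a 12-gene microglia list were detected in 2091 of the 2950, and the list summed to 1052 to 2027 CPM. Fcrls of this list had 98.2 to 358 CPM, while Tmem119, a microglial membrane protein, had 1.47 to 9.20 CPM and Slc2a5 had no UMI in 3 of the 6 libraries. Genes that are more particular to resident border macrophages were scarce. Lyve1, a hyaluronan receptor of perivascular macrophages, had 0.643 to 17.2 CPM and was detected in 0.441% to 7.48% of the nuclei, Cbr2, a carbonyl reductase, had 10.0 to 40.2 CPM, and the folate receptor gene Folr2 had 5.37 to 24.9 CPM. P2ry12, a microglial receptor that the rule allowed as its 1 permitted exclusion gene, was still detected in 19% to 57.0%. The lesion macrophage genes Spp1 and Gpnmb were high as well, with 61.5 to 903 CPM and 623 to 1536 CPM. The nuclei thus carried general and border macrophage markers and microglial genes, but few had the Lyve1, Cbr2 or Folr2 RNA of resident border macrophages. A list of 10 monocyte genes summed to 54.5 to 217 CPM, with Ly6c2, which defines classical monocytes, between 0 and 3.42 CPM and Ccr2, their chemokine receptor, between 11.5 and 87.3 CPM.

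**Figure D1:**
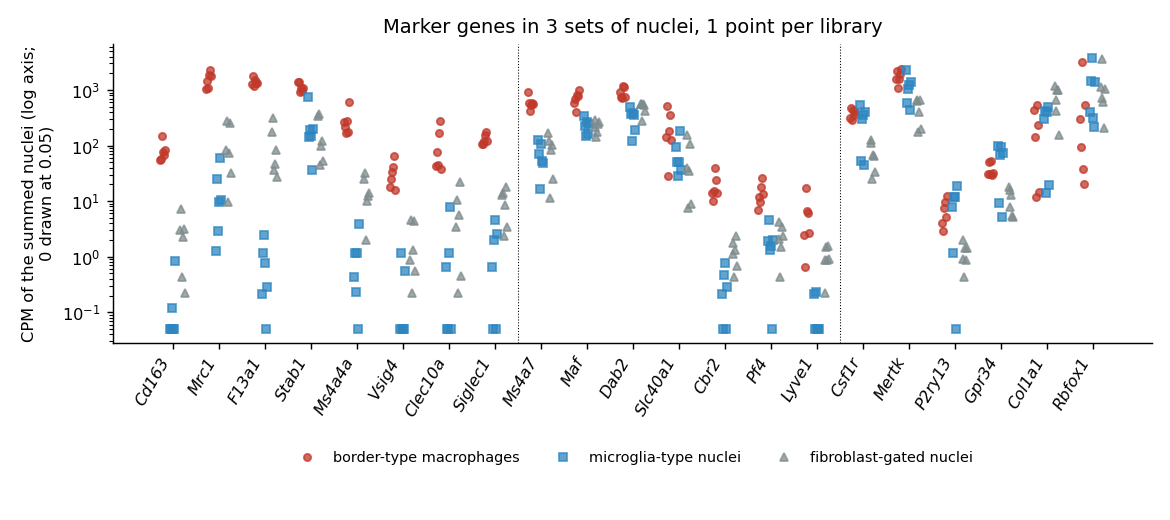
Marker genes in border-type macrophages, microglia-type nuclei and fibroblast-gated nuclei. Each point is 1 library, and the y axis is CPM of the summed nuclei on a log scale, with 0 drawn at 0.05. The left block holds the 8 genes of the rule, the middle block other macrophage genes and the right block general, microglial, fibroblast and neuronal genes. Ms4a7 lay at 421 to 914 CPM in the border-type macrophages and Lyve1 at 0.643 to 17.2 CPM.

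The number of the 8 genes per nucleus described how far a nucleus was inside the rule. Exactly 4 were detected in 1680 nuclei (56.9%), 5 in 846, 6 in 309, 7 in 94 and all 8 in 21. Just outside it, 3027 nuclei met every other condition with exactly 3 genes. From nuclei with 3 genes to those with 4, with at least 5 and with at least 6, Cbr2 had 2.58, 7.27, 24.8 and 44.0 CPM over all libraries and Maf 468, 612, 879 and 949 CPM. Gpnmb went the other way, with 1605, 1344, 806 and 580 CPM, and so did Spp1, with 837, 747, 485 and 432 CPM. The 4-gene limit thus cut across a gradient between nuclei with more border macrophage RNA and nuclei with more lesion macrophage RNA. Deeper nuclei also detect more genes. A further 2084 nuclei had 4 or more of the 8 genes but were left out by the 7 exclusion genes, between 14.4% of such nuclei in Tgfbr2-cKO at 7 dpi and 52.1% in Ctrl at 21 dpi.

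Genes outside the rule that were higher in the border-type macrophages than in the other macrophage-gated nuclei of the same library were ranked by their lowest ratio over the 6 libraries. This is the contrast that chose the nuclei, so the values are a description. Of 9217 genes with enough UMIs, 1270 were higher in all 6 libraries and 1262 lower, and 16 were at least 2-fold higher in all 6. The first was Cbr2, at log2 ratios of 2.18 to 4.83. The antiviral sensor Oas2 followed, from 1.44 upward, with Trim30c at 1.29 to 2.15 and the MS4A family gene Ms4a6b at 1.18 to 2.22. The chemokine Ccl8 was at 1.13 to 4.48, and Cd4, the co-receptor that some tissue macrophages also carry, at 1.12 to 2.87. Cmah, an enzyme of sialic acid synthesis, was at 1.11 to 4.30, and the last 3 were Ifi203 at 1.02 to 2.47, Ifi213 at 1.01 to 2.14 and the cation channel gene Trpv4 at 1.01 to 1.87. The other 5 of the 15 named genes were Pstpip2, Nxpe5, Rasgrp4, Gm30489 and Gm49144, with lowest ratios of 1.05 to 1.17.

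The share of border-type macrophages differed between the libraries by more than their counting intervals. At 7 dpi it was 4.34% (3.90% to 4.81%) of passing nuclei in Ctrl, 12.5% (11.8% to 13.1%) in ADWA11 and 0.986% (0.808% to 1.19%) in Tgfbr2-cKO. At 21 dpi it was 1.62% (1.40% to 1.86%) in Ctrl, 4.54% (4.19% to 4.92%) in ADWA11 and 5.85% (5.28% to 6.45%) in Tgfbr2-cKO. ADWA11 was thus above Ctrl at both times, by 2.87-fold at 7 dpi and 2.81-fold at 21 dpi, as log2 ratios 1.52 (1.35 to 1.70) and 1.49 (1.25 to 1.73). Tgfbr2-cKO was below Ctrl at 7 dpi, at a log2 ratio of -2.14 (-2.46 to -1.82), and above it at 21 dpi, at 1.86 (1.60 to 2.11). Between 7 and 21 dpi the Ctrl share differed by -1.43 (-1.69 to -1.17). The Ctrl library of each day served both comparisons of that day.

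Both mice of a library lay on the same side of the mice of Ctrl in each comparison. In female and male nuclei the shares were 4.73% and 4.54% in Ctrl, 13.5% and 11% in ADWA11 and 0.718% and 1.35% in Tgfbr2-cKO at 7 dpi. At 21 dpi they were 1.73% and 1.45% in Ctrl, 2.86% and 5.43% in ADWA11 and 8.53% and 3.35% in Tgfbr2-cKO. The 2 mice of a 21 dpi library thus differed about as much as some groups did. The base of the share changed the Tgfbr2-cKO ratios. As a share of macrophage-gated nuclei, border-type macrophages were 7.19%, 19% and 4.06% at 7 dpi and 4.35%, 8.11% and 14.5% at 21 dpi, which put the Tgfbr2-cKO ratio at -0.82 at 7 dpi and 1.74 at 21 dpi. Without the neural-gated nuclei, which include border-type macrophages with neural RNA, these ratios were -0.75 and 2.44. The exclusion gene Col1a2 was detected in 46.4% and 64.1% of the Ctrl border-type macrophages and in 1.87% and 3.24% of those of Tgfbr2-cKO. With no exclusion gene used, the Tgfbr2-cKO ratios were -2.77 at 7 dpi and 1.14 at 21 dpi, in the same directions.

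**Figure D2:**
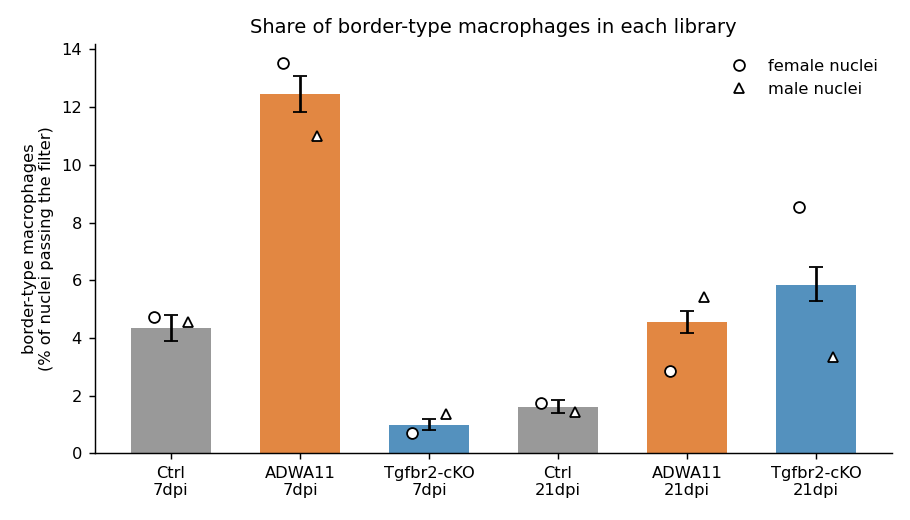
Share of border-type macrophages among passing nuclei in each of the 6 libraries. The y axis is percent, the bars are libraries with exact 95% binomial intervals, circles are female nuclei and triangles male nuclei. ADWA11 at 7 dpi reached 12.5%, and Tgfbr2-cKO went from 0.986% at 7 dpi to 5.85% at 21 dpi.

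Expression was compared by summing the UMIs of the border-type macrophages of a library. A gene was past 2-fold when its log2 ratio was at least 1 in size, the interval left out 0 and at least 50 UMIs were counted over both libraries. With ADWA11 at 7 dpi, 617 of 11884 genes were past 2-fold higher (5.19%) and 484 lower (4.07%). With ADWA11 at 21 dpi, 248 of 8933 genes were higher (2.78%) and 451 lower (5.05%), so that 35.5% of those past 2-fold were higher, against 47.8% with TMM scaling. For Tgfbr2-cKO at 7 dpi the counts were 866 (10.4%) and 814 (9.82%) of 8292 genes, 51.5% of them higher, against 60.3% with TMM scaling and 63.0% with median-of-ratios scaling. At 21 dpi they were 578 (6.65%) and 430 (4.95%) of 8694 genes. Ctrl at 21 against 7 dpi gave 409 higher (4.98%) and 218 lower (2.66%) of 8206 genes, 65.2% of them higher, against 53.1% with TMM scaling. Without the 937 nuclei with RNA of another class the 5 counts in this order were 624, 380, 263, 445 and 323, and Tgfbr2-cKO at 7 dpi lost most. Genes higher and lower were then 435 and 189 of 9793 and 227 and 153 of 6761 with ADWA11. For Tgfbr2-cKO they were 128 and 135 of 4872 and 314 and 131 of 5954, and in Ctrl over time 150 and 173 of 5343. List counts without those nuclei are read against these, not against the percentages with all nuclei. Leaving out the 5 nuclei with the most UMIs of each gene, which are a larger share of a library with few nuclei, moved the split in all 5 comparisons and turned it in 3 of them. In the same order 89.0%, 79.3%, 17.6%, 73.1% and 34.1% of the genes past 2-fold were then higher, and the median of all genes was at 0.30, 0.28, -0.71, 0.24 and -0.16. With all nuclei the median log2 ratio of all genes with at least 20 UMIs was 0.04, -0.02, -0.23, 0.05 and 0.03, and list medians are read against it.

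MHC class II genes had the list median farthest from 0 in 4 of the 5 comparisons, among the lists described here, which leave out those of other cell classes. Some of those lay farther from 0. The T and NK cell list was at -2.32 with ADWA11 at 7 dpi and the mural list at -2.30 with ADWA11 at 21 dpi. For Tgfbr2-cKO at 21 dpi the neuron list was at 3.95 and the fibroblast list at -3.48. Class II molecules present peptides to CD4 T cells; H2-Aa, H2-Ab1 and H2-Eb1 encode their chains, Cd74 the invariant chain that guides them, H2-DMa, H2-DMb1 and H2-Oa the proteins that load or edit peptides, and Ciita the transcriptional activator of the whole group. H2-Aa had 10.9 CPM in Ctrl, 35.4 in ADWA11 and 3.22 in Tgfbr2-cKO at 7 dpi, while the 21 dpi values were 81.3, 405 and 14.2 CPM. H2-Eb1 had 5.23, 28.9 and 8.58 CPM at 7 dpi and 56.4, 316 and 9.58 CPM at 21 dpi. Cd74 had 32.2, 97.1 and 26.8 CPM at 7 dpi and 228, 838 and 37.6 CPM at 21 dpi. Ciita had 8.05, 44.2 and 6.44 CPM at 7 dpi and 45.9, 258 and 7.67 CPM at 21 dpi. ADWA11 at 21 dpi was thus the highest library for each of these genes, and Tgfbr2-cKO at 21 dpi was near the level of Ctrl at 7 dpi. Ccr2 was also highest in that ADWA11 library, with 19.7, 29.4 and 54.7 CPM at 7 dpi and 22, 87.3 and 11.5 CPM at 21 dpi. Its ratio with ADWA11 was 1.99 (1.37 to 2.67) at 21 dpi, and that for Tgfbr2-cKO at 7 dpi was 1.47 (0.88 to 2.07). Of the monocyte list 1 of 2 genes with enough UMIs was past 2-fold higher with ADWA11 at 21 dpi, against 2.78% of all genes. For Tgfbr2-cKO at 7 dpi 1 of 2 was higher, against 10.4%, and 1 lower, against 9.82%. In Ctrl over time 1 of 2 was lower, against 2.66%. None of 3 with ADWA11 at 7 dpi and none of 2 for Tgfbr2-cKO at 21 dpi was past 2-fold. Without the nuclei with RNA of another class 2 of 3 were higher with ADWA11 at 7 dpi, against 435 of all 9793 genes. For Tgfbr2-cKO 1 of 1 was then higher at 7 dpi, against 128 of 4872. Within ADWA11 at 21 dpi 277 of the 281 Ccr2 UMIs lay in the 442 nuclei with at least 2 of the 4 class II genes H2-Aa, H2-Ab1, H2-Eb1 and Cd74. Those were 76.9% of the 575 border-type macrophages of that library. None of the Ccr2 UMIs lay in the 36 nuclei with no such gene. The part of Ccr2 in the class II levels was not tested.

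The promoters of class II genes are shown because 5 or 6 of the 7 class II genes with enough UMIs were past 2-fold in one direction in 4 of the 5 comparisons, as given after the sequences, and because class II promoters are known for a conserved Y box, the CCAAT motif that NF-Y binds. RefSeq windows (GRCm38.p6) of 250 bases before to 50 after the start site were found for 5 of the 8 list genes, and 3 are printed 5′ to 3′ on the gene's strand. Capitals mark ATTGG, the Y box core, or CCAAT, the same letters on the other strand. H2-Aa lies at chr17:34287774-34288073, minus strand, H2-Eb1 at chr17:34305617-34305916, plus strand, and H2-DMb1 at chr17:34152941-34153240, plus strand.
H2-Aa: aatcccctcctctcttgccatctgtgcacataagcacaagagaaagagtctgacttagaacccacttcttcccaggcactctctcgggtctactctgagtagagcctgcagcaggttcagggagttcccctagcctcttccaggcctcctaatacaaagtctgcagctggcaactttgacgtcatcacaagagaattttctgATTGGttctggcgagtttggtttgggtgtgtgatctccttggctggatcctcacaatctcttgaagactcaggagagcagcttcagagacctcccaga
H2-Eb1: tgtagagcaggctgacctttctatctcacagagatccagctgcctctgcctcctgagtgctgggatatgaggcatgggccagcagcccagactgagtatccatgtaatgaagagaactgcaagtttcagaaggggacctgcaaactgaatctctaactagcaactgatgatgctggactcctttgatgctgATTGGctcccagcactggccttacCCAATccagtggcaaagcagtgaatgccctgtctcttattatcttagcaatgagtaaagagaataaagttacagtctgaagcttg
H2-DMb1: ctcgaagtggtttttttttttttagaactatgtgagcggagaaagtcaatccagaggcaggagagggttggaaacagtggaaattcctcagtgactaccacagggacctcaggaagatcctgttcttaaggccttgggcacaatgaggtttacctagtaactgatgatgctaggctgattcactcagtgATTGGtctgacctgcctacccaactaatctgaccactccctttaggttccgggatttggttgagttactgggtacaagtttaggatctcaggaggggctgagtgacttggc
The first base of ATTGG lay at -48 from the start site in H2-Aa, at -59 in H2-Eb1, where a CCAAT followed at -35, and at -61 in H2-DMb1. The 5 genes had 6 windows, since H2-DMa has 2 of them in the RefSeq table. On either strand ATTGG was in 5 of these 6 windows, one of H2-DMa lacking it, and in 12289 of all 32851 windows (37.4%). The longer TGATTGG, which contains it, was in 4 of the 6 and in 2568 of all windows (7.82%). A match describes the letters in the window and is not a measured site.

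With ADWA11 at 7 dpi 5 of 7 class II genes with enough UMIs were past 2-fold higher and none lower, against 5.19% of all genes, with a list median of 1.71. H2-Eb1 had the log2 ratio 2.47 (1.67 to 3.39), Ciita 2.46 (1.82 to 3.18), H2-Ab1 1.75 (1.17 to 2.38), H2-Aa 1.71 (1.14 to 2.33) and Cd74 1.59 (1.26 to 1.94). At 21 dpi 6 of 7 were higher, against 2.78%, with a median of 1.88, and Ciita and H2-Eb1 were both at 2.49, H2-Aa at 2.32, Cd74 at 1.88 and H2-Ab1 at 1.85. For Tgfbr2-cKO at 21 dpi 5 of 7 were lower and none higher, against 4.95% of all genes, with a median of -2.56 and ratios from -2.97 for H2-Ab1 to -2.52 for H2-Aa. At 7 dpi too few UMIs were counted, and none of 2 genes was past 2-fold. In Ctrl 5 of 7 were higher at 21 than at 7 dpi, against 4.98%, with a median of 2.82, H2-Eb1 at 3.43 and H2-Ab1 at 3.10. Leaving out the nuclei with RNA of another class put H2-Ab1 at 3.83 and Cd74 at 3.47 in Ctrl over time, and then 3 of 3 genes were lower for Tgfbr2-cKO at 21 dpi and 3 of 3 higher in Ctrl over time. In all 4 comparisons each of H2-Aa, H2-Ab1, H2-Eb1, Cd74 and Ciita had the same direction in female and male nuclei. For H2-Aa the ratios in female and male nuclei were 1.02 and 2.61 with ADWA11 at 7 dpi, and 2.94 and 1.40 at 21 dpi. They were 1.59 and 4.32 in Ctrl over time, with H2-Eb1 at 1.87 and 5.03, and for Tgfbr2-cKO at 21 dpi Ciita was at -3.72 and -1.28.

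Class II RNA was also found in fibroblast-gated nuclei, which held at least 3 of the 6 genes Col1a1, Col1a2, Col3a1, Dcn, Lum and Pdgfra. Fibroblasts should carry little of it, but this gate did not leave out macrophages or the border-type macrophages themselves. In fibroblast-gated nuclei H2-Aa had 10.9, 17.7 and 1.74 CPM at 7 dpi and 32.2, 127 and 9.33 CPM at 21 dpi. The list median there was 1.97 with ADWA11 at 21 dpi and -1.61 for Tgfbr2-cKO at 21 dpi. Class II RNA thus moved in the same direction in the fibroblast-gated nuclei of the library. How much of it there came from macrophages inside that gate was not tested. How much of the value in the border-type macrophages was free RNA was not tested either. Counted per nucleus, at least 2 of H2-Aa, H2-Ab1, H2-Eb1 and Cd74 were detected in 3.79% of border-type macrophages in Ctrl, 15.4% in ADWA11 and 2.80% in Tgfbr2-cKO at 7 dpi, while the 21 dpi values were 22.1%, 76.9% and 4.05%. After each nucleus was thinned to 3000 UMIs the shares were 1.40%, 8.41% and 2.35% at 7 dpi and 18.4%, 67.3% and 3.10% at 21 dpi. Fibroblast-gated nuclei thinned alike gave 2.16%, 3.48% and 0% at 7 dpi and 4.59%, 28.1% and 2.23% at 21 dpi. Among border-type macrophages the thinned share was above that of the fibroblast-gated nuclei in ADWA11 at both times and in Ctrl at 21 dpi. The intervals were 6.95% to 10.1%, 62.9% to 71.4% and 12.5% to 25.6%. In Ctrl at 7 dpi and Tgfbr2-cKO at 21 dpi the interval held the share of the fibroblast-gated nuclei, so a share beyond it was not detectable at this depth. In Tgfbr2-cKO at 7 dpi the share rested on 2 of 85 nuclei.

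**Figure D3:**
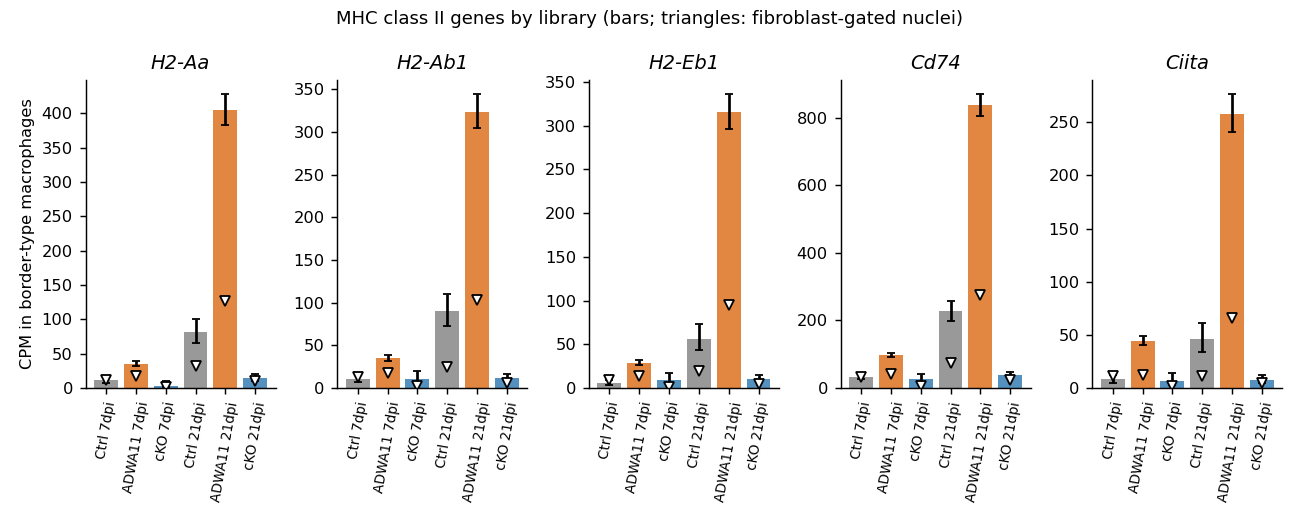
Class II genes H2-Aa, H2-Ab1, H2-Eb1, Cd74 and Ciita in border-type macrophages. The y axis is CPM on a scale of its own for each gene, the bars are the 6 libraries with exact 95% Poisson intervals, cKO stands for Tgfbr2-cKO, and open triangles are fibroblast-gated nuclei of the same library. H2-Aa reached 405 CPM in ADWA11 at 21 dpi, against 127 CPM in its fibroblast-gated nuclei.

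The TGFβ pathway genes that were past 2-fold with ADWA11 were all lower. Pmepa1 and Smad7 are feedback inhibitors that TGFβ signalling itself induces, and Skil is a repressor of SMAD proteins. Pmepa1 had 261 CPM in Ctrl, 32.8 in ADWA11 and 156 in Tgfbr2-cKO at 7 dpi, while the 21 dpi values were 123, 26.7 and 108 CPM. Smad7 had 46.7, 18.5 and 40.8 CPM at 7 dpi and 38.2, 13 and 31.4 CPM at 21 dpi. Skil had 116, 47.8 and 97.6 CPM at 7 dpi and 105, 51.6 and 85.1 CPM at 21 dpi. In all 3 genes ADWA11 was the lowest library of its day, and Tgfbr2-cKO was closer to Ctrl than to ADWA11.

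The log2 ratio of Pmepa1 was -2.99 (-3.18 to -2.80) with ADWA11 at 7 dpi and -2.21 (-2.62 to -1.80) at 21 dpi. Without the nuclei with RNA of another class it was -3.78 and -3.82. Smad7 was at -1.33 and -1.55 and Skil at -1.28 and -1.03, the last just past 2-fold and at -0.93 in female and -1.80 in male nuclei. In female and male nuclei Pmepa1 was at -3.08 and -2.94 at 7 dpi and at -1.36 and -1.84 at 21 dpi. Fibroblast-gated nuclei had 513, 187 and 292 CPM of Pmepa1 at 7 dpi, so it was lower there too with ADWA11. Of the 25 genes on the TGFβ list, 24 had enough UMIs with ADWA11 at 7 dpi, of which 7 were past 2-fold lower, against 4.07% of all genes, and none higher, with a median of -0.54. At 21 dpi 3 of 22 were lower, against 5.05%, with a median of -0.33. Without the nuclei with RNA of another class the first became 4 of 18, against 189 of all 9793 genes, at -0.31. The second became 2 of 17, against 153 of 6761, at -0.28. For Tgfbr2-cKO 5 of 21 were lower at 7 dpi, against 9.82%, and 4 of 20 at 21 dpi, against 4.95%, with medians of -0.79 and -0.40. The Tgfbr2-cKO medians were -0.07 and -0.02 without those nuclei, and then none of 16 and none of 15 genes was lower, while 1 of the 16 was higher at 7 dpi. In Ctrl at 21 against 7 dpi 1 of 23 was higher, against 4.98%, and 1 lower, against 2.66%.

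Fcrls is a Fc receptor-like gene that microglia carry and that belongs to a microglial program TGFβ maintains. It had 358, 151 and 257 CPM at 7 dpi and 293, 98.2 and 194 CPM at 21 dpi in border-type macrophages, and its ratio with ADWA11 was -1.24 (-1.36 to -1.12) and -1.58 (-1.81 to -1.34). Both mice of each ADWA11 library were below both mice of Ctrl, and the 2 mice of Tgfbr2-cKO at 21 dpi were far apart, at 77.5 CPM in female and 504 CPM in male nuclei. Of the 12-gene microglia list 3 of 8 genes were past 2-fold lower with ADWA11 at 7 dpi, against 4.07% of all genes, and 2 of 7 at 21 dpi, against 5.05%, with medians of -0.80 and -0.86. Those were Fcrls and the matrix protein gene Sparc at both times, and Olfml3 at 7 dpi. For Tgfbr2-cKO 1 of 8 was lower at 7 dpi, against 9.82%, and 1 of 7 at 21 dpi, against 4.95%, the second being 3 of 7 without the nuclei with RNA of another class. In Ctrl over time 1 of 8 was higher, against 4.98%. With ADWA11 the microglia list was lower outside the border-type macrophages too. In the other passing nuclei it summed to 1716 CPM in Ctrl and 838 CPM in ADWA11 at 7 dpi, and to 1191 and 846 CPM at 21 dpi. Microglia-type nuclei numbered 607 and 64 at 7 dpi and 326 and 47 at 21 dpi. How this bears on the border-type macrophages was not tested.

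**Figure D4:**
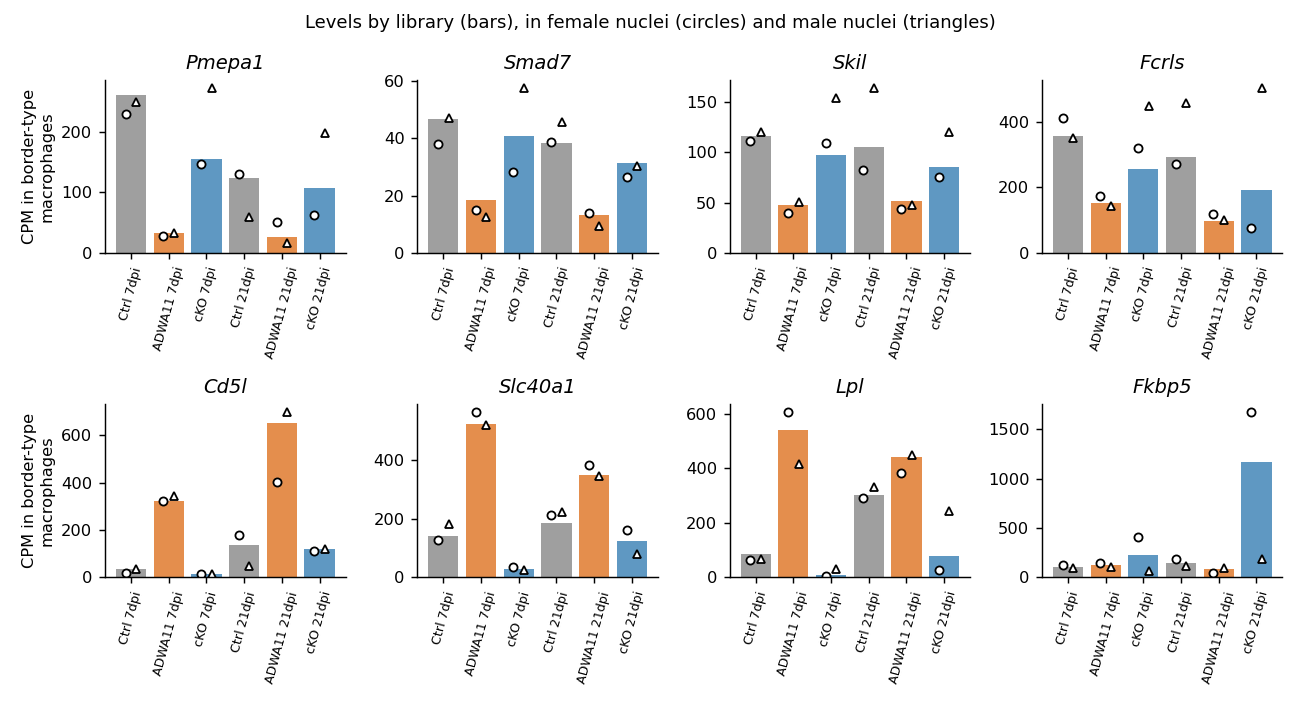
Levels of 8 genes in border-type macrophages. The y axis is CPM on a scale of its own for each gene, bars are the 6 libraries, cKO stands for Tgfbr2-cKO, circles are female nuclei and triangles male nuclei. Pmepa1 was at 32.8 and 26.7 CPM in the ADWA11 libraries, and Fkbp5 in Tgfbr2-cKO at 21 dpi was at 1674 CPM in female and 189 CPM in male nuclei.

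A few uptake and lipid genes were higher with ADWA11, led by Cd5l. Cd5l encodes a secreted scavenger protein of tissue macrophages that binds lipids and supports their survival. It had 33.0, 320.0 and 13.9 CPM at 7 dpi and 138, 653 and 121 CPM at 21 dpi. Its ratio with ADWA11 was 3.28 (2.96 to 3.61) at 7 dpi and 2.25 at 21 dpi, at 1.18 in female and 3.94 in male nuclei at 21 dpi, and in fibroblast-gated nuclei it had 31.3 CPM in Ctrl and 134 CPM in ADWA11 at 7 dpi. In Ctrl it was 2.06 higher at 21 than at 7 dpi, at 3.37 in female and 0.39 in male nuclei. Stab2, a hyaluronan and scavenger receptor related to Stab1, had 17.7, 65.2 and 6.44 CPM at 7 dpi and 37.3, 127 and 21.1 CPM at 21 dpi, for ratios of 1.88 and 1.77 with ADWA11. These 2 genes were the only genes of the scavenger list past 2-fold higher with ADWA11 at both times.

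Of the scavenger and lectin receptor list 3 of 12 genes were past 2-fold higher with ADWA11 at 7 dpi, against 5.19% of all genes, at a median of 0.32, and at 21 dpi 2 of 12 were higher, against 2.78%, and 1 lower, against 5.05%. For Tgfbr2-cKO 3 of 10 were lower at 7 dpi, against 9.82% of all genes, and 1 of 10 at 21 dpi, against 4.95%. The first was 1 of 8 without the nuclei with RNA of another class, and the median went from -0.69 to 0.0592. In Ctrl 2 of 11 were higher at 21 than at 7 dpi, against 4.98%. Cd36, a receptor for oxidised lipids and long-chain fatty acids, had 239, 555 and 59.0 CPM at 7 dpi and 176, 171 and 48.3 CPM at 21 dpi. Its ratio was 1.21 (1.09 to 1.34) with ADWA11 at 7 dpi, at 0.94 in female and 1.01 in male nuclei, and -1.86 (-2.20 to -1.53) for Tgfbr2-cKO at 21 dpi. At 21 dpi ADWA11 and Ctrl had nearly the same level.

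The lipid genes differed among themselves. Lpl, which releases fatty acids from lipoproteins, had 85.7, 542 and 7.51 CPM at 7 dpi and 301, 440.2 and 79.7 CPM at 21 dpi. With ADWA11 at 7 dpi its ratio was 2.66 (2.46 to 2.86), at 3.28 and 2.62 in female and male nuclei. For Tgfbr2-cKO at 21 dpi it was -1.92 (-2.18 to -1.66), but -3.49 in female and -0.45 in male nuclei, and -0.89 without the nuclei with RNA of another class. Pparg, a nuclear receptor that controls lipid genes, had 179, 325 and 64.4 CPM at 7 dpi and 278, 592 and 136 CPM at 21 dpi, so it was 1.09 higher with ADWA11 and -1.03 for Tgfbr2-cKO at 21 dpi, the first at 0.59 in female and 1.35 in male nuclei. Nr1h3, the oxysterol receptor LXRα, was at 1.75 with ADWA11 at 21 dpi, at 0.01 in female and at least 1.54 in male nuclei, and at 4.06 without the nuclei with RNA of another class. Of the list 2 of 17 genes were higher with ADWA11 at 7 dpi, against 5.19% of all genes, and 2 of 15 at 21 dpi, against 2.78%, and without those nuclei 3 of 17 and 3 of 15. For Tgfbr2-cKO 3 of 14 were lower at 7 dpi, against 9.82%, with a median of -0.80 that was -0.29 without those nuclei, and at 21 dpi 3 of 16 were lower, against 4.95%, and 1 higher, against 6.65%. In Ctrl over time 1 of 14 was higher, against 4.98%.

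Heme and iron genes were next to these. Slc40a1 encodes ferroportin, the iron exporter through which macrophages return iron from red cells. It had 141, 522 and 27.9 CPM at 7 dpi and 186, 349 and 125 CPM at 21 dpi. At 7 dpi the ratio was 1.89 (1.73 to 2.05) with ADWA11 and -2.34 (-2.97 to -1.76) for Tgfbr2-cKO, in the same direction in both mice. Hmox1, which breaks down heme, had 121, 89.9 and 26.8 CPM at 7 dpi and 56.4, 35.4 and 158 CPM at 21 dpi. For Tgfbr2-cKO its ratio was -2.18 at 7 dpi and 1.48 at 21 dpi, the former at -0.84 in female and -2.56 in male nuclei and at -1.05 without the nuclei with RNA of another class, the latter at 2.26 in female and -0.38 in male nuclei. Of the list of 16 genes, 2 of 16 were higher with ADWA11 at 7 dpi, against 5.19% of all genes, and 1 of 16 at 21 dpi, against 2.78%, while for Tgfbr2-cKO 3 of 15 were lower at 7 dpi, against 9.82%, and 2 of 16 higher at 21 dpi, against 6.65%. Those were 2 of 14 lower, and 1 of 15 higher with 1 lower, without those nuclei. In Ctrl over time 2 of 15 were higher, against 4.98%, and 1 lower, against 2.66%, and without those nuclei 1 of 14 was higher and 1 lower.

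Of the interferon-stimulated genes, 8 of 18 were past 2-fold higher with ADWA11 at 21 dpi and none lower, against 2.78% of all genes, with a median of 1.05. Parp14 and Irf1, both induced by interferon, were at 1.05 and 1.08, and Gbp2, a GTPase of cell defence, was at 1.08. In female and male nuclei Irf1 was at 0.59 and 1.22 and Gbp2 at 0.81 and 0.93. Another such GTPase, Iigp1, had 77.5 CPM in Ctrl and 219 in ADWA11 at 21 dpi, a ratio of 1.50, which was 0.26 in female and 1.34 in male nuclei. Without the nuclei with RNA of another class Gbp2 was at 0.62 and Iigp1 at 0.74, 4 of 17 genes were higher and the median was 0.79, and in fibroblast-gated nuclei the median was 0.87. At 7 dpi 3 of 19 were higher with ADWA11, against 5.19%, at a median of 0.21, and 2 of 17, at 0.06, without those nuclei. For Tgfbr2-cKO at 7 dpi 4 of 14 were higher, against 10.4% of all genes, at 0.43. Without those nuclei 2 of 10 were higher, against 128 of all 4872 genes in that setting. For Tgfbr2-cKO at 21 dpi 1 of 14 was lower, against 4.95%, and in Ctrl over time 2 of 14 were higher, against 4.98%.

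Chemokines had few UMIs. Ccl8, which draws monocytes and T cells and is a product of tissue macrophages, had 14.9, 23.0 and 11.8 CPM at 7 dpi and 120.5, 337 and 55.6 CPM at 21 dpi. Its ratio was 1.48 (1.22 to 1.76) with ADWA11 and -1.12 (-1.47 to -0.76) for Tgfbr2-cKO at 21 dpi, the first at 0.92 in female and 1.76 in male nuclei, the second at -1.62 in female and 0.12 in male nuclei and at -0.89 without the nuclei with RNA of another class. In Ctrl it was 3.02 (2.48 to 3.59) higher at 21 than at 7 dpi. Fibroblast-gated nuclei had 8.19, 62.5 and 5.96 CPM of it at 21 dpi. Ccl6 was at 3.27 (2.58 to 4.06) with ADWA11 at 7 dpi. At 21 dpi it was at 1.14, but at 0.70 in female and 0.25 in male nuclei and at 0.67 without the nuclei with RNA of another class. Ccl5 had 0.956 CPM in Ctrl and 19.3 in ADWA11 at 21 dpi, at 4.33 (1.80 to 9.66) from 1 UMI in Ctrl, and at 3.93 in female and at least 0.39 in male nuclei, and at 3.07 without those nuclei. Past 2-fold were 3 of 10 chemokines with ADWA11 at 7 dpi, against 5.19% of all genes, and 5 of 11 at 21 dpi, against 2.78%, all higher, with medians of 0.59 and 1.24. For Tgfbr2-cKO 1 of 1 was lower at 7 dpi, against 9.82%, and at 21 dpi 1 of 8 was higher, against 6.65%, and 2 lower, against 4.95%. In Ctrl over time 3 of 4 were higher, against 4.98% of all genes. Leaving out those nuclei gave 4 of 8 higher with ADWA11 at 21 dpi, none of 1 lower for Tgfbr2-cKO at 7 dpi, 1 of 4 higher and 1 lower at 21 dpi, and 1 of 2 higher in Ctrl over time.

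Of the complement genes, 6 of 11 were past 2-fold higher in Ctrl at 21 than at 7 dpi, against 4.98% of all genes, and none lower, with a median of 0.99. C1qa, a chain of the C1q complex that tags debris and synapses, had 129 CPM at 7 dpi and 283 CPM at 21 dpi, a ratio of 1.13 (0.90 to 1.36). C1qc, another chain, was at 1.03 and Cfp, which stabilises the enzyme of the alternative pathway, at 1.15. In female and male nuclei C1qa was at 1.02 and 1.39, C1qc at 0.75 and 1.20 and Cfp at 0.47 and 1.69. Leaving out the nuclei with RNA of another class put C1qc at 0.90 and the count at 4 of 9, with a median of 0.90. With ADWA11 2 of 12 were higher, against 5.19%, and 2 lower, against 4.07%, at 7 dpi. At 21 dpi 1 of 13 was higher, against 2.78%, and 1 lower, against 5.05%, and without those nuclei 1 of 10 was higher and none lower. For Tgfbr2-cKO none of 11 was past 2-fold at 7 dpi, with a median of -0.05. Without those nuclei 3 of 8 were higher, against 128 of all 4872 genes in that setting, at a median of 0.85. At 21 dpi 2 of 11 were lower for Tgfbr2-cKO, against 4.95%.

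Of the glucocorticoid-responsive genes, 5 of 10 were past 2-fold higher for Tgfbr2-cKO at 21 dpi, against 6.65% of all genes. Fkbp5, a chaperone that the glucocorticoid receptor induces, had 105, 125 and 231 CPM at 7 dpi and 145, 84.5 and 1172 CPM at 21 dpi, for a ratio of 3.01 (2.78 to 3.26). In the Tgfbr2-cKO library at 21 dpi female nuclei had 1674 CPM and male nuclei 189 CPM, so the ratio was 3.21 in female and 0.73 in male nuclei. The kinase gene Sgk1 had 36.3 CPM in Ctrl and 193 in Tgfbr2-cKO, at 2.41 (1.93 to 2.93), with 2.62 and 1.35 in female and male nuclei. The clock gene Per1 was at 1.78, with 2.01 and 2.38, and the zinc finger gene Zbtb16 at 1.34, with 1.04 and 1.23. The phosphatase gene Dusp1 was at 2.14, with 2.03 in female nuclei and no UMI in male nuclei of Tgfbr2-cKO. Without the nuclei with RNA of another class Zbtb16 was at 1.98 and Dusp1 at 0.89. In fibroblast-gated nuclei Fkbp5 had 188 CPM in Ctrl and 796 CPM in Tgfbr2-cKO at 21 dpi. Its ratio in other macrophage-gated nuclei was 2.23, so it was higher in other nuclei of that library as well. The list median was 0.25, and 1.75 without those nuclei. At 7 dpi 2 of 9 were higher for Tgfbr2-cKO, against 10.4%, and 2 of 11 with ADWA11, against 5.19%, with medians of 0.74 and 0.55. With ADWA11 at 21 dpi none of 8 was past 2-fold, at a median of -0.62, and in Ctrl over time 4 of 8 were higher, against 4.98%, and 1 lower, against 2.66%, at 1.19. Without those nuclei 3 of 4 were higher for Tgfbr2-cKO at 7 dpi, against 128 of all 4872 genes, at 1.15. With ADWA11 at 21 dpi none of 6 was then higher and 1 lower, against 153 of 6761. In Ctrl over time 1 of 4 was higher, against 150 of 5343, and 1 lower, against 173.

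Matrix and coagulation genes and cell cycle genes were counted with and without the nuclei with RNA of another class. Of the matrix list 10 of 17 genes were past 2-fold lower for Tgfbr2-cKO at 7 dpi, against 9.82% of all genes, with a median of -1.26, but without the nuclei with RNA of another class 1 of 7 was lower and 2 higher, with a median of 0.06. At 21 dpi 4 of 18 were higher, against 6.65% of all genes, and 8 lower, against 4.95%, and without those nuclei 2 of 8 were higher and none lower. With ADWA11 2 of 20 were higher, against 5.19%, and 7 lower, against 4.07%, at 7 dpi, at a median of -0.56, against 1 of 18 higher and 1 lower without those nuclei, at -0.17. At 21 dpi 1 of 16 was higher, against 2.78%, and 1 lower, against 5.05%, and without those nuclei 1 of 9 was higher and none lower. In Ctrl over time 2 of 18 were higher, against 4.98%, and 2 lower, against 2.66%, and without those nuclei 1 of 7 was higher and 1 lower. Of the cell cycle list 9 of 13 were lower for Tgfbr2-cKO at 7 dpi, against 9.82% of all genes, at -1.25, and 1 of 7 was lower without those nuclei, at 0.13. With ADWA11 at 7 dpi 4 of 20 were higher, against 5.19%, at a median of 0.79. These were Cenpf at 1.10, Bub1 at 1.09, Cdk1 at 1.21 and Mcm5 at 1.59, genes of mitosis and DNA replication, and in female and male nuclei Cenpf was at 2.63 and 1.34 and Cdk1 at 2.27 and 0.43. Without those nuclei Cdk1 was at 0.96 and Mcm5 at 1.29 with an interval that held 0. In that setting 8 of 16 list genes were higher, against 435 of all 9793 genes, at a median of 1.06. At 21 dpi 2 of 7 were lower with ADWA11, against 5.05%, and 3 of 9 for Tgfbr2-cKO, against 4.95%, and 2 of 4 in each without those nuclei. In Ctrl 5 of 13 were lower at 21 than at 7 dpi, against 2.66%, with the proliferation marker Mki67 at -1.53 (-2.17 to -0.94), from 74.5 to 25.8 CPM. Mki67 was at -0.31 in female and -1.74 in male nuclei and at -0.59 without those nuclei, when none of 6 list genes was lower.

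Other border macrophage markers were a list of 22 genes such as Cbr2, Folr2 and Maf. Of those with enough UMIs 1 of 16 was higher with ADWA11 at 7 dpi, against 5.19% of all genes, and 1 of 15 lower at 21 dpi, against 5.05%, with medians of 0.06 and -0.08. For Tgfbr2-cKO 2 of 11 were lower at 7 dpi, against 9.82%, and 3 of 13 at 21 dpi, against 4.95%, with medians of -0.35 and -0.44. In Ctrl 2 of 13 were higher at 21 than at 7 dpi, against 4.98%, at 0.47. Without the nuclei with RNA of another class 2 of 15 were higher and 1 lower with ADWA11 at 7 dpi. At 21 dpi 1 of 15 was then higher, against 227 of all 6761 genes, and 4 lower, against 153, at a median of -0.37. For Tgfbr2-cKO at 7 dpi 1 of 10 was then higher and 1 lower, at 0.34, and in Ctrl over time 3 of 13 were higher. The 8 genes of the rule chose the nuclei and are given as a description. With ADWA11 none was past 2-fold. For Tgfbr2-cKO Cd163 was at 1.47 at 7 dpi, with 151 CPM against 54.7 CPM. In female and male nuclei it had 259 and 81.4 CPM there, against 107 and 10.2 CPM in Ctrl. At 21 dpi Clec10a was at -2.20, Vsig4 at -1.35 and Ms4a4a at 1.13 for Tgfbr2-cKO. Ms4a4a was at 1.43 in female and 0.02 in male nuclei and 0.79 without the nuclei with RNA of another class. In Ctrl Clec10a was at 2.02 and Vsig4 at 1.22 at 21 against 7 dpi, Vsig4 at 0.77 in female and 1.93 in male nuclei and at 0.98 without those nuclei. Clec10a had 42.3, 75.9 and 44.0 CPM at 7 dpi and 171, 273 and 37.2 CPM at 21 dpi.

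**Figure D5:**
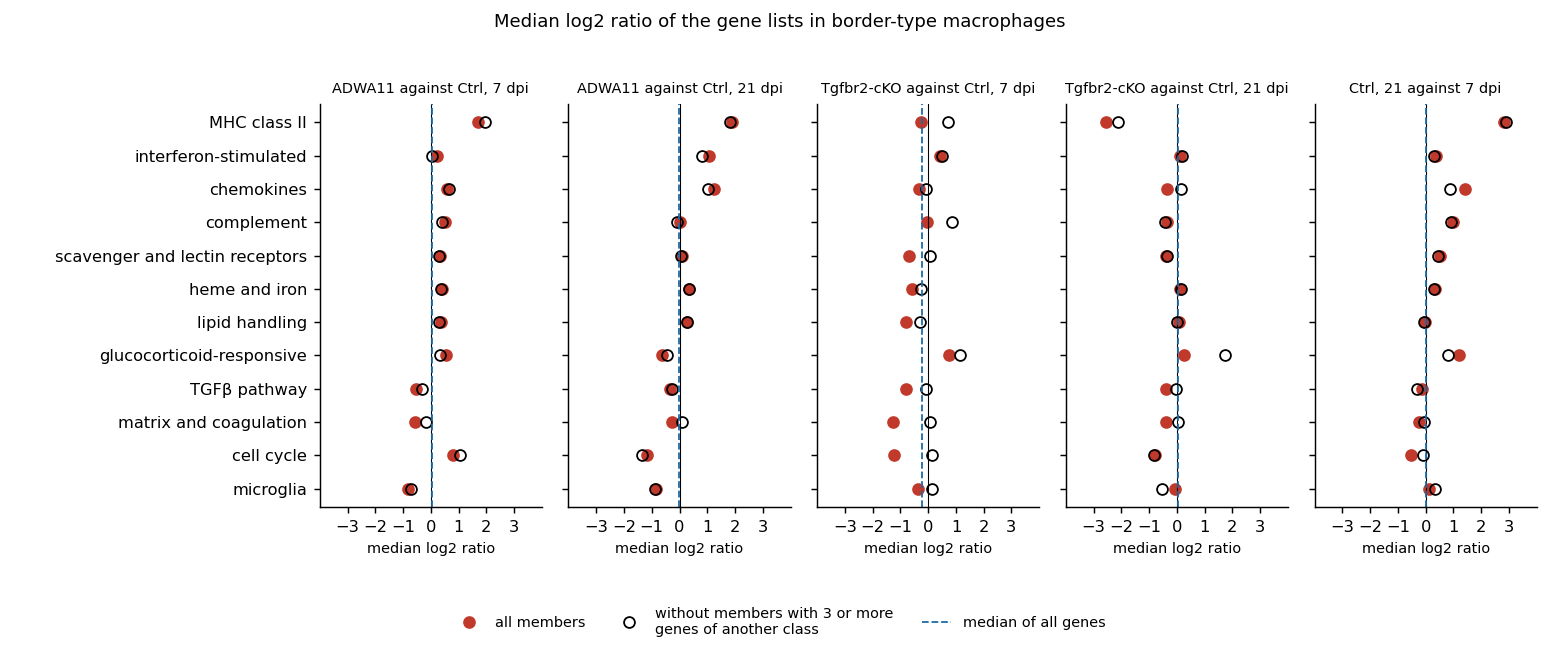
Median log2 ratio of each gene list in the 5 comparisons. The x axis is the log2 ratio, filled points are all border-type macrophages, open points leave out those with at least 3 genes of another class, and the dashed line is the median of all genes. The class II median was 1.71 and 1.88 with ADWA11 and -2.56 for Tgfbr2-cKO at 21 dpi, and open and filled points lay farthest apart for Tgfbr2-cKO.

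Genes with the ratio bound farthest from 0 were also named in each comparison. With ADWA11 at 7 dpi these were higher for Cd5l, Ccl6, Ptprz1, Trpm3 and the unnamed gene model Gm49101. Ptprz1, a phosphatase of glial precursors, was at 3.19 and Trpm3, a cation channel gene found in the leptomeninges, at 2.99, but they were at 0.80 and 0.65 without the nuclei with RNA of another class. Gm49101 had no UMI in Ctrl, where the floor of 3 counts was used, and was at least 3.0 higher on the log2 scale, or at least 2.07 without those nuclei. Lower were Ifitm10 at -3.63 (-4.04 to -3.23), from 81.7 to 6.61 CPM, Kif26b at -3.30, Erg at -3.27, Pmepa1 at -2.99 and the ephrin receptor gene Epha3 at -2.90, or -1.58 without those nuclei. Ifitm10 belongs to the interferon-induced transmembrane family, and it was at -3.70 and -3.28 in female and male nuclei. In other macrophage-gated nuclei Ccl6 was at 3.15, Trpm3 at 2.52, Cd5l at 2.48, Ptprz1 at 0.90, Ifitm10 at -2.73 and Pmepa1 at -2.48. The remaining genes named here had the same direction there as well.

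With ADWA11 at 21 dpi the higher genes were Fabp4, Paqr9, Gm11099, H2-Eb1 and Ciita. Fabp4, a fatty acid carrier of macrophages and fat cells, was an exclusion gene of the rule, so its level here counts only nuclei in which it was the 1 permitted gene. It had no UMI in Ctrl and 34.8 CPM in ADWA11, at least 3.60 higher at the floor of 3 counts, and Paqr9 was at least 3.20 higher, or at least 2.73 and 0.98 in female and male nuclei. Gm11099 was at 3.28. Lower were the growth hormone receptor gene Ghr at -2.91, Spp1 at -2.55 (-2.80 to -2.30), the growth factor gene Tgfa at -2.75, the malic enzyme gene Me3 at -2.69 and the adhesion gene Ncam1 at -2.35. Without the nuclei with RNA of another class Fabp4 was at least 2.59 and Paqr9 at least 2.04 higher, Ghr was at -2.28, and Ncam1, at -2.28, and Me3, with no UMI left in ADWA11, had intervals that held 0. Spp1 encodes osteopontin, a matrix protein that lesion macrophages secrete. It had 776, 903 and 308 CPM at 7 dpi and 359.5, 61.5 and 314 CPM at 21 dpi, and its ratio at 21 dpi was -2.87 and -3.26 in female and male nuclei. Of the scar-associated macrophage list 3 of 11 genes were past 2-fold lower with ADWA11 at 21 dpi, against 5.05% of all genes, at a median of -0.06. Without the nuclei with RNA of another class 2 of 10 were higher, against 227 of all 6761 genes, and 2 lower, against 153. In other macrophage-gated nuclei at 21 dpi Gm11099 was at 4.95, Ciita at 3.11, H2-Eb1 at 2.27, Ghr at -2.44 and Spp1 at -1.78. The remaining genes named here had the same direction there as well.

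For Tgfbr2-cKO at 7 dpi the named genes were neuronal on 1 side and fibroblast genes on the other. Higher were the synaptic genes Asic2 at 7.81, Gabrg3 at 7.43, Gria1 at 7.19 and Tenm2 at 6.79, and the glycosyltransferase gene Mgat4c with 827 CPM against 5.64 CPM. Lower were the collagen genes Col1a2 at -8.22, Col5a2 at -7.97 and Col3a1 at -5.78, with Bnc2 at -7.77 and Itgbl1 at -7.02. Col1a2 was an exclusion gene of the rule, so its level counts only nuclei in which it was the 1 permitted gene. In other macrophage-gated nuclei the same ratios were 5.18 for Asic2 and -5.23 for Col1a2. All 10 were smaller without the nuclei with RNA of another class, when Gria1 was at 5.4, Gabrg3 at 4.59, Mgat4c at 4.33, Asic2 at 4.17, Tenm2 at 2.59, Col1a2 at -4.34 and Col3a1 at -3.80. Bnc2 was then at -2.45 with an interval that held 0, and Col5a2 and Itgbl1 had no UMI left in Tgfbr2-cKO, with bounds of -0.28 and -0.68.

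For Tgfbr2-cKO at 21 dpi 2 immune genes were among the higher genes with and without those nuclei. Kynu, the kynureninase of tryptophan breakdown, had 8.61 CPM in Ctrl and 192 in Tgfbr2-cKO, a ratio of 4.48 (3.55 to 5.62), and 4.43 without those nuclei. Cd300lf, an inhibitory receptor for lipids of dying cells, had 29.6 and 329 CPM, a ratio of 3.47 (2.96 to 4.04), and 4.68 without them. Kynu was at 7.04 and 3.12 and Cd300lf at 3.63 and 4.11 in female and male nuclei, and in other macrophage-gated nuclei they were at 1.71 and 1.45. Fkbp5 followed, with Snhg11 at 3.20 and Asic2 at 4.20, the latter at least 1.36 without those nuclei. Lower were Slc47a1 at -6.93, Col1a2 at -6.77, Col5a2 at -5.81, Ghr at -5.30 and Col1a1 at -5.18, which are mostly fibroblast genes, Col1a2 again as an exclusion gene of the rule. Without those nuclei Col5a2 was at -2.11, Ghr at -3.92 and Col1a1 at -3.56, and Slc47a1 had a bound of -2.70.

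In Ctrl at 21 against 7 dpi the antibody genes Igkc, at 5.06, and Igha, at 5.42, were among the higher genes, with the prostaglandin D synthase gene Ptgds at 4.70, Slc47a1 at 3.78 and Gm10076 at 4.12. In fibroblast-gated nuclei Igkc was at 5.26, Igha at 5.51 and Ptgds at 3.72. In other macrophage-gated nuclei they were at 5.22, 4.92 and 4.63, so they were higher in other nuclei of the library too. Lower were Kif26b at -4.63, Kynu at -3.58 (-4.73 to -2.63), Vcan at -2.96, the glycosyltransferase gene Galnt3 at -2.96 and Mreg at -2.82. Kynu had 103 CPM in Ctrl at 7 dpi and 8.61 CPM at 21 dpi, so the high value of Tgfbr2-cKO at 21 dpi was read against a low Ctrl library. Without the nuclei with RNA of another class Vcan was at -1.75, Igha at 4.38, Slc47a1 at 2.06 with an interval that held 0, and Kif26b had no UMI left in Ctrl at 21 dpi, so that no ratio could be read.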

How the data were processed

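Nuclei were isolated from PT lesions and sequenced as 6 droplet libraries that count RNA 3′ ends, 1 per group. The deposited counts are whole UMI counts per gene and nucleus in filtered matrices, made by the authors with Cell Ranger and the mm10 build. The file headers name version 7.2.0, the submitters' processing notes 7.1.0. No correction for free RNA was applied here. The total UMIs per library ran from 64798965 to 140310354, and intervals cover counting error only.

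The rule above was applied to every barcode. The members and gene lists were chosen with earlier results of these data known. UMIs of the members were summed per library and given as CPM with exact Poisson intervals, shares with exact Clopper-Pearson intervals, and ratios with exact conditional binomial intervals. With 1 library per group there was no test across mice, and no p-value is given. Genes with at least 50 UMIs over both libraries were counted as past 2-fold, and list medians used genes with at least 20 UMIs. Mitochondrial genes, Xist, Tsix and Y-linked genes were left out. A library at 0 was set to a floor of 3 counts. Doublets were called by a score made from summed pairs of nuclei, kept in the main values and left out as an alternative. Thinning to 3000 UMIs left out shallower nuclei.

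The text names the genes of the rule, list genes with the most UMIs or past 2-fold, the 5 genes per comparison and direction with the interval bound farthest from 0 (at least 10 nuclei, none with over 20% of the UMIs), and the 15 genes with the largest lowest ratio to other macrophage-gated nuclei (at least 200 UMIs, 5 per library). The lists reported were MHC class II, TGFβ pathway, scavenger and lectin receptors, heme and iron, lipid handling, glucocorticoid-responsive, interferon-stimulated, chemokines, complement, matrix and coagulation, cell cycle, microglia and other border macrophage markers. Counts past 2-fold of the monocyte and scar-associated macrophage lists are given beside Ccr2 and Spp1. Promoter windows came from RefSeq, GRCm38.p6, and gene coordinates from GENCODE on GRCm38, which matched 32235 of 32285 features. Alternatives changed the marker number, exclusion genes, UMI filter and minimum, denominator, scaling (TMM or median of ratios), doublets, shared barcodes and the mouse. Other exclusion sets and leaving out nuclei with RNA of another class or with a Col1a2 UMI were added after the data were seen. Python 3.11.15, numpy 2.4.6, scipy 1.17.1, pandas 2.3.3, matplotlib 3.10.9, R 4.3.3 and edgeR 4.0.16 (TMM factors only) were used, and the ratio code was tested on simulated data.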

Additional observations from a re-analysis of the deposited data

Results flagged for a closer look

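Several values of the Tgfbr2-cKO comparison lay on opposite sides of Ctrl at 7 and 21 dpi. Each comparison had 1 library a group, so the difference between the days was not tested, and the Ctrl library of each day was its own. The share of border-type macrophages had log2 ratios of -2.14 at 7 dpi and 1.86 at 21 dpi. Hmox1, the heme oxygenase gene, was at -2.18 and 1.48, and Plaur, the urokinase receptor gene, at -2.67 and 1.79. The chemokine gene Cxcl16 was at -1.39 and 1.16 and the transcription factor gene Runx3 at -1.30 and 2.10. In the other direction, Socs2, a brake on cytokine signals, was at 1.19 and -1.99 and the antiviral gene Oas2 at 1.04 and -1.0. Of these 6 genes 4 were no longer past 2-fold at 7 dpi without the nuclei with RNA of another class. Hmox1 was then at -1.05, Cxcl16 at -0.35 and Runx3 at -0.47, Socs2 was at 2.00 with an interval that held 0, and Plaur had no UMI left in Tgfbr2-cKO, for a bound of -0.47, as in male nuclei, for a bound of -0.58. At 21 dpi Hmox1 was at -0.38 and Runx3 at -0.11 in male nuclei. Without the nuclei with RNA of another class Runx3 was at 3.89 at 21 dpi and Socs2 at -1.70, the latter with an interval that held 0. In female and male nuclei at 7 dpi Hmox1 was at -0.84 and -2.56 and Cxcl16 at -0.76 and -1.19. At 21 dpi Plaur was at 2.36 and 0.89. Oas2 was at 0.25 in female and 2.57 in male nuclei at 7 dpi, and at -1.27 and -0.52 at 21 dpi.

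With ADWA11 the median of the glucocorticoid-responsive list was 0.55 at 7 dpi and -0.62 at 21 dpi, and that of the cell cycle list 0.79 and -1.16. These differences were not tested either.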

How the results depend on the processing

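No paired analysis was possible because each group was 1 library and the labels give no replicate numbers. The share ratios kept their direction in all settings run. In the order Tgfbr2-cKO at 7 dpi, ADWA11 at 7 dpi, Tgfbr2-cKO at 21 dpi, ADWA11 at 21 dpi and Ctrl over time, the ratios -2.14, 1.52, 1.86, 1.49 and -1.43 moved by more than their intervals as follows, with the comparisons in that order and others left out. With at least 3 markers ADWA11 at 7 dpi was at 1.32. With at least 5 markers ADWA11 at 7 dpi was at 1.82, Tgfbr2-cKO at 21 dpi at 1.58 and Ctrl over time at -0.93. With none of the 7 exclusion genes all 5 moved, to -1.65, 1.71, 3.07, 2.20 and -2.31. Thinned to 3000 UMIs ADWA11 at 7 dpi was at 1.74, Tgfbr2-cKO at 21 dpi at 1.36 and Ctrl over time at -0.88. Of macrophage-gated nuclei Tgfbr2-cKO at 7 dpi was at -0.82, ADWA11 at 21 dpi at 0.90 and Ctrl over time at -0.73. Without neural nuclei Tgfbr2-cKO was at -0.75 and 2.44. In female nuclei Tgfbr2-cKO was at -2.72 and 2.30 and ADWA11 at 21 dpi at 0.72. In male nuclei Tgfbr2-cKO was at -1.75 and 1.21 and ADWA11 at 1.27 and 1.91. With Col1a2 left out of the exclusion genes Tgfbr2-cKO was at -2.76 and 1.02 and Ctrl over time at -1.16. With P2ry12 left out Tgfbr2-cKO was at -2.62 and 1.31 and ADWA11 at 21 dpi at 1.16. With no exclusion gene Tgfbr2-cKO was at -2.77 and 1.14. Without nuclei with RNA of another class Tgfbr2-cKO at 7 dpi was at -2.67 and ADWA11 at 21 dpi at 1.84.

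The counts of genes past 2-fold were 1680, 1101, 1008, 699 and 627 in the same order. With a minimum of 20 UMIs the last 3 were 1565, 1113 and 1104. With no minimum Tgfbr2-cKO had 3421 and 2017, ADWA11 at 21 dpi 1438 and Ctrl over time 1507. With at least 5 markers these 4 counts were 954, 571, 396 and 325, and without called doublets 463, 504, 404 and 410. Female nuclei gave 845 for Tgfbr2-cKO at 7 dpi, 248 for ADWA11 at 21 dpi and 364 for Ctrl over time, and male nuclei 573 and 314 for Tgfbr2-cKO and 645 for ADWA11 at 7 dpi. Without nuclei with RNA of another class the counts were 263, 624, 445, 380 and 323. Without nuclei with a Col1a2 UMI ADWA11 at 21 dpi had 378 and Ctrl over time 334. Fewer nuclei and fewer genes tested enter most of these settings.

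Some list medians and genes changed sign. For Tgfbr2-cKO at 7 dpi the scavenger list was at 0.10 in male nuclei, and without nuclei with RNA of another class scavenger was at 0.0592, matrix at 0.0650 and cell cycle at 0.13. The cell cycle list was at 0.71 for Tgfbr2-cKO at 21 dpi with at least 5 markers. With ADWA11 at 21 dpi it was at 1.10 with at least 5 markers, at 0.71 without the 5 top nuclei of a gene and at 0.27 without nuclei with a Col1a2 UMI, and in Ctrl over time it was at 0.16 in female nuclei. In male nuclei of Tgfbr2-cKO at 21 dpi Dusp1 was at -0.85, Ccl8 at 0.12, Hmox1 at -0.38 and Runx3 at -0.11. In Ctrl over time Stab2 was at -0.51 in male nuclei, and Kif26b at 0.0574 without nuclei with RNA of another class and at 0.25 without those with a Col1a2 UMI. Dusp1 in Tgfbr2-cKO and Kif26b in Ctrl at 21 dpi had no UMI left there, so these values rest on the floor of 3 counts. The cause was not tested. Chemokine, class II and cell cycle genes at 7 dpi in Tgfbr2-cKO rest on the fewest UMIs, since that library held 107 border-type macrophages.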
